A study of Mus musculus with 24 samples.

Results

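Messenger RNAs of 7 genes of Schwann cells and their myelin were followed in bulk RNA-seq of the mouse aorta: Sox10, Mbp, Ncmap, Pmp2, Mag, Prx and S100b. They were picked by name from the 21959 genes of the table, and all 7 had a row. The 24 libraries came from male mice in 4 groups. Wild-type mice on plain water (WT) gave 6 libraries and wild-type mice given β-aminopropionitrile (BAPN) gave 7 (WT-BAPN). Mice labelled ATAD3A-KI gave 5 libraries on plain water (KI) and 6 on BAPN (KI-BAPN). BAPN blocks lysyl oxidase, the enzyme that cross-links collagen and elastin, and is used to provoke aortic aneurysm and dissection; it was dissolved at 0.5% (w/v) in the drinking water from 3 weeks of age for 28 days. The tissue ran from the ascending aorta to the bifurcation in the abdomen. How the knock-in allele was made, which promoter drives it and which cells carry it is not described in the labels, which also give no strain and no time of collection. Atad3a itself, which codes for an ATPase of the mitochondrial membrane, was at 1078 ± 408 CPM (read counts scaled to a common library size; mean ± SD) in KI and 587 ± 263 in KI-BAPN, against 40.1 ± 11.4 in WT and 33.2 ± 7.25 in WT-BAPN.

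Schwann cells are the glia of peripheral nerves. One kind wraps a single large axon in a compact spiral of membrane, the myelin sheath, and another kind holds bundles of thin unmyelinated axons. Both kinds depend on the transcription factor SOX10 and on neuregulin signals from the axon, which are received by the ERBB2 and ERBB3 receptors. The aorta is reached by thin autonomic and sensory fibres in its outer coat, the adventitia, while larger nerves and sympathetic ganglia run in the tissue around it. In bulk RNA, fewer cells of a type and less RNA per cell cannot be told apart.

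Library totals ran from 13127645 to 26490651 counts, and 14216 genes had counts enough to be tested. The labels do not say whether each library came from a separate mouse, so p-values measure the spread between libraries. Acta2, the actin of smooth muscle, was abundant in all 24 libraries, at 4198 to 39690 CPM, though this marker alone does not show the organ. It was lowest in WT replicate 5, where 7 smooth muscle markers summed to 8782 CPM against a WT median of 42250. Markers of oligodendrocytes, the myelinating cells of the central nervous system, were close to absent. All 7 of them (Mog, Mobp, Opalin, Olig1, Olig2, Ermn and Hapln2) together reached at most 1.14 CPM in a library, and Opalin had 1 read in all libraries.

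Set apart from the rest were 3 libraries, WT replicate 5 and KI replicates 2 and 5. WT replicate 5 and KI replicate 5 were above all 21 others in Sox10, Mbp, Ncmap and Mag, and KI replicate 2 was above them in Sox10 only (18.7 against at most 7.61 CPM), with Mbp at 48.5 against at most 49.2 CPM. Each also carried a large amount of other RNA, given here as sums over marker lists, with the 2 markers of the highest mean over the 24 libraries named. WT replicate 5 held 18889 CPM summed over 8 airway and gland markers (Bpifa1 and Scgb1a1), while the median of the WT libraries was 25.5. It also held 5952 CPM over 8 skeletal muscle markers (Acta1 and Tnnt3; WT median 15.99) and 233 CPM over 8 T cell markers (Cd4 and Lck; WT median 2.20). Its sum over 7 genes listed for nerve sheath and endoneurium was 395 CPM (Slc2a1 and Itgb4; WT median 89.9). Of these, Slc2a1 was not raised, at 47.1 CPM against a median of 48.2 over the 24 libraries. Itgb4 was at 76.7 against 10.9 CPM, and Sox9, which is also in the chondrocyte list used below, at 24.9 against 5.54 CPM. Which cells this sum came from was not tested. KI replicate 2 held 1484 CPM over 8 sympathetic neuron markers (Slc18a2 and Dbh; KI median 100.2). KI replicate 5 held the highest adipocyte sum of the KI group, 8091 CPM over 8 markers (Fabp4 and Adipoq; KI median 1204), and 1237 CPM over 6 endothelial markers (Pecam1 and Tie1; KI median 459). Its sympathetic neuron sum was 230 CPM, the highest after KI replicate 2. A like adipocyte sum, 8277 CPM, was in KI-BAPN replicate 3, which was kept. The part of these other cells in the nerve gene values was not tested. The main group differences are given with all libraries and without the 3.

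**Figure D1:**
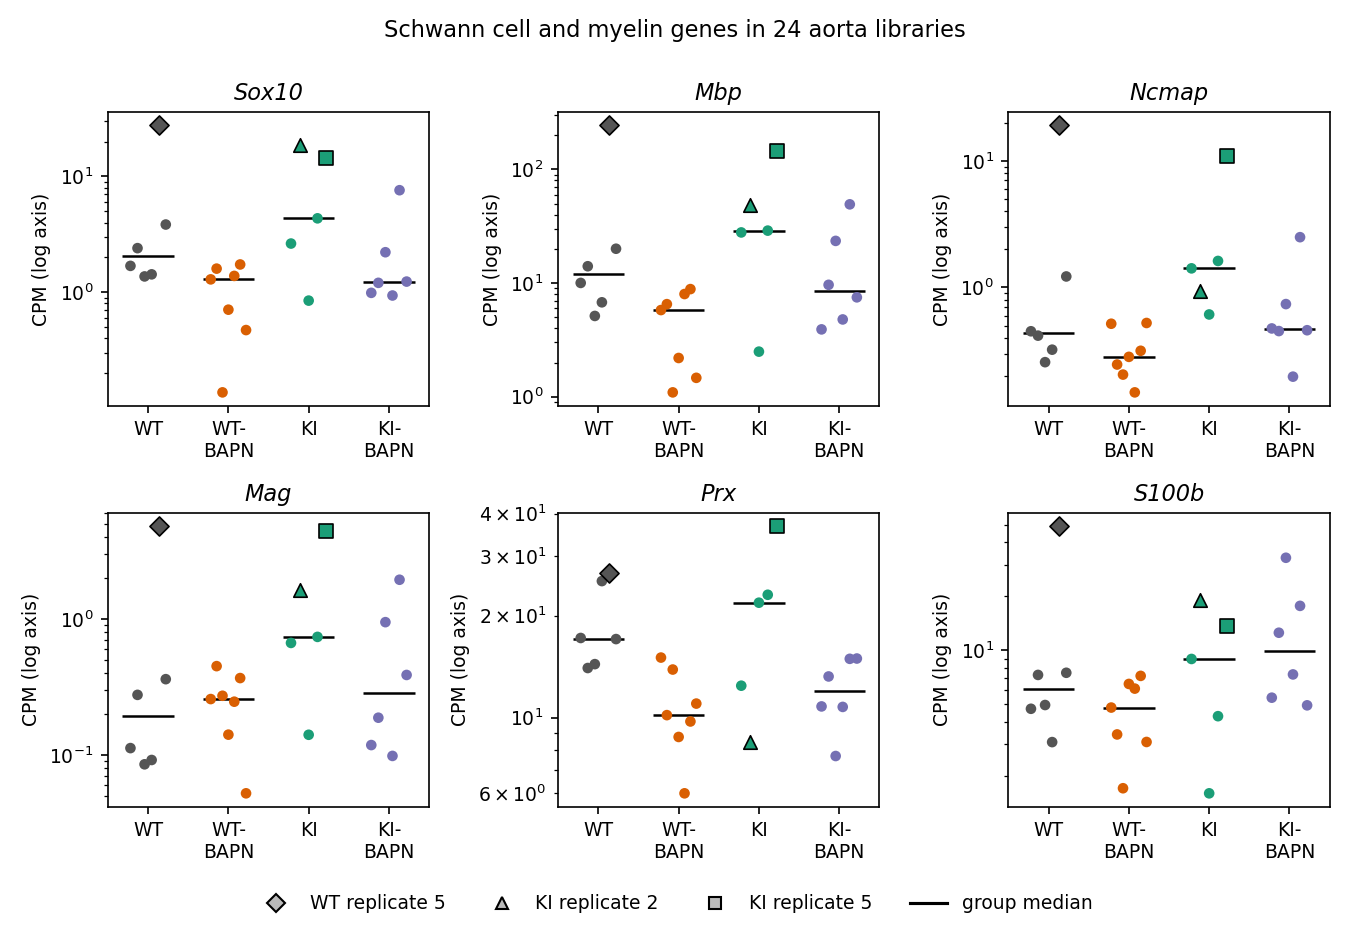
Level of 6 Schwann cell and myelin genes (CPM, log axis) in each of 24 aorta libraries by group, with a bar at the group median and outlined symbols for WT replicate 5 (diamond), KI replicate 2 (triangle) and KI replicate 5 (square). Outside these 3 libraries the groups overlap, and Prx has the narrowest range.

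Sox10, the transcription factor on which every stage of the Schwann cell lineage depends, lies on chromosome 15 at 79039108 to 79049440 on the minus strand in the deposited coordinates. It was at 1.37, 2.05 and 27.6 CPM (lowest, median and highest) in WT and at 0.137, 1.29 and 1.74 CPM in WT-BAPN. The 5 KI libraries had 2.63, 18.7, 0.847, 4.35 and 14.4 CPM, and the 6 KI-BAPN libraries had 0.937, 1.22 and 7.61 CPM. All 7 WT-BAPN libraries were below the WT median, but the groups overlapped. The log2 difference between WT-BAPN and WT was -2.59 ± 0.81 (SE), with an adjusted p of 0.0578 by edgeR's quasi-likelihood test with Benjamini-Hochberg adjustment over all genes tested, which did not pass the threshold of 0.05. Without the 3 libraries the difference was -1.03 ± 0.58 (edgeR adjusted p = 0.250).

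Mbp encodes myelin basic protein, which holds the inner faces of the myelin membrane together, and lies on chromosome 18 at 82493271 to 82603762 on the plus strand. It was the most widely varying of the group by absolute level: 5.14, 12.0 and 243 CPM in WT (lowest, median and highest), 1.09, 5.79 and 8.85 CPM in WT-BAPN, and 3.91, 8.57 and 49.2 CPM in KI-BAPN. The 5 KI libraries had 27.9, 48.5, 2.49, 28.9 and 144 CPM. WT replicate 5 was 32.5 times, KI replicate 5 19.2 times and KI replicate 2 6.48 times the median of the other 21 libraries. Every WT-BAPN library lay below the WT median, and the highest of them, 8.85 CPM, was above the lowest WT library. Mbp fell on BAPN in WT, by 3.35 ± 0.95 on the log2 scale (edgeR adjusted p = 0.0389). Without the 3 libraries the difference was -1.21 ± 0.66 (edgeR adjusted p = 0.235), so the call depended on WT replicate 5, without which alone the difference was -1.20 (edgeR adjusted p = 0.288).

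Ncmap, a small membrane protein of Schwann cell myelin, lies on chromosome 4 at 135096887 to 135125538 on the minus strand. Its levels were low, with 885 reads in all libraries together. It was at 0.257, 0.433 and 19.05 CPM in WT (lowest, median and highest), at 0.148, 0.283 and 0.524 CPM in WT-BAPN and at 0.197, 0.467 and 2.49 CPM in KI-BAPN. The 5 KI libraries had 1.41, 0.938, 0.612, 1.62 and 10.996 CPM. Ncmap fell on BAPN in WT by 3.47 ± 0.99 on the log2 scale (edgeR adjusted p = 0.0400), and in WT replicate 5 alone it had 333 of its 885 reads. Without the 3 libraries the difference was -0.75 ± 0.56 (edgeR adjusted p = 0.386), with an approximate 95% interval from -1.84 to 0.35.

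Pmp2, the fatty acid-binding protein of peripheral myelin, had 1 read in all 24 libraries, in KI-BAPN replicate 5, and was not tested. It lies on chromosome 3 at 10244911 to 10248989 on the minus strand. A count of 0 allows up to 3 counts, which is 0.106 to 0.257 CPM depending on the library, for reads assigned to the gene. In the GENCODE M21 annotation 1224 of the 1408 exonic bases of Pmp2 are also exonic in Gm37389, a gene on the same strand that had 0 reads in all libraries. How reads shared by overlapping genes were counted is not given in the sources used here, so these 0 counts do not show that Pmp2 was not expressed.

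Mag and Prx mark opposite faces of the sheath. Mag, a sialic acid-binding adhesion protein on the membrane next to the axon, lies on chromosome 7 at 30598601 to 30614298 on the minus strand. Prx, or periaxin, links the outer Schwann cell membrane to the basal lamina and lies on the same chromosome at 27196813 to 27219639 on the plus strand. Their upstream sequences are shown because Mag varied with Sox10 across the 21 other libraries (Pearson r = 0.67 on log2 CPM) and Prx did so less (0.19). Both are from RefSeq, in GRCm38.p6, read 5′ to 3′ on the gene's strand and cut at the outermost annotated start of the gene. Capitals mark a SOX hexamer, ACAAAG or ACAATG on either strand. The Mag window is chr7:30914923-30915172 and the Prx window chr7:27499074-27499304.
Mag: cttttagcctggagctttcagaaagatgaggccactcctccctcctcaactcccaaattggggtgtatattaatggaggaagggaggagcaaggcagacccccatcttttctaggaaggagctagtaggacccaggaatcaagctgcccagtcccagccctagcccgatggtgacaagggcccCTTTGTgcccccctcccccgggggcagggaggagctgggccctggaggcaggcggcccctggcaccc
Prx: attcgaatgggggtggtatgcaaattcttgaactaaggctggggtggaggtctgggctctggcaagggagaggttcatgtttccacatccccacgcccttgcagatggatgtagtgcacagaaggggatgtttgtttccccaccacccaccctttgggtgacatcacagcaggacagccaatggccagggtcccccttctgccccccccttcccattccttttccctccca
The 250 bases before Mag held 1 such hexamer, on the minus strand, 67 to 62 bases before the start, and the 231 bases before Prx held none. The letters alone set little apart, since 25% of 32536 RefSeq promoter windows held a SOX hexamer. The binding sequence of the EGR factors, GCGNGGGCG, was in neither window, against 4.74% of all windows. Of the other members, Ncmap and S100b had an entry and held neither motif. Ncmap varied with Sox10 about as closely as Mag did (r = 0.71 over the 21 libraries), and S100b had r = 0.59. Mbp, Sox10 and Pmp2 had no entry.

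Mag was the least abundant tested gene, with 1 to 101 reads per library. It was at 0.0856, 0.195 and 4.80 CPM in WT (lowest, median and highest), 0.0524, 0.258 and 0.451 CPM in WT-BAPN and 0.0987, 0.288 and 1.95 CPM in KI-BAPN. The 5 KI libraries had 0.668, 1.64, 0.141, 0.740 and 4.41 CPM. The log2 difference between WT-BAPN and WT was -1.86 ± 0.94 (edgeR adjusted p = 0.221). It changed sign without the 3 libraries, to 0.42 ± 0.73 (edgeR adjusted p = 0.731), with an approximate 95% interval from -1.02 to 1.86.

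Prx varied least between libraries, its highest value being 4.23 times its lowest over the 21 libraries, against 16.8 times for Ncmap and 45.1 times for Mbp. It was at 14.01, 17.1 and 26.7 CPM in WT (lowest, median and highest), at 5.98, 10.2 and 15.03 CPM in WT-BAPN, and at 7.70, 12.0 and 14.9 CPM in KI-BAPN. The 5 KI libraries had 12.4, 8.48, 21.8, 23.0 and 36.7 CPM. WT replicate 5 was 1.92 times and KI replicate 5 2.64 times the median of the other 21 libraries, and KI replicate 2, which was high in Sox10, was 0.612 times that median. All 7 WT-BAPN libraries were below the WT median of 17.1 CPM, and the groups overlapped only between 14.01 and 15.03 CPM. The log2 difference between WT-BAPN and WT was -0.84 ± 0.27 with all libraries (edgeR adjusted p = 0.0632) and Prx fell by 0.73 ± 0.22 without the 3 (edgeR adjusted p = 0.0434). On BAPN in KI the difference was -0.76 ± 0.29 (edgeR adjusted p = 0.369), and -0.66 ± 0.26 without the 3 libraries (edgeR adjusted p = 0.323). Prx is also made by some endothelial cells, and KI replicate 5, its highest library, had the highest endothelial marker sum of the KI group. The libraries highest in that sum in WT (replicate 6), WT-BAPN (replicate 6) and KI-BAPN (replicate 3) were not the highest in Prx. They had 17.0, 9.74 and 7.70 CPM of Prx, the last being the lowest of its group. Over the groups the endothelial sum had medians of 478 CPM in WT, 421 in WT-BAPN, 459 in KI and 483 in KI-BAPN. A sum over 7 markers of lung endothelium and alveolus (Car4 and Ednrb) was highest in WT replicate 5 (132 CPM) and KI replicate 5 (147 CPM). Each of these was also the highest of its group in Prx. In the BAPN groups that sum was highest in WT-BAPN replicate 6 and KI-BAPN replicate 3, which were not. The part of endothelial cells in the Prx values was not tested.

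S100b, a calcium-binding protein of the Schwann cell cytosol that is also made by adipocytes and chondrocytes, lies on chromosome 10 at 76089687 to 76096993 on the plus strand. Its span overlaps that of Dip2a on the other strand, but their exons share 0 bases in GENCODE M21. It was at 3.09, 6.13 and 49.1 CPM in WT (lowest, median and highest), at 1.71, 4.80 and 7.21 CPM in WT-BAPN and at 4.94, 9.95 and 32.8 CPM in KI-BAPN. The 5 KI libraries had 8.96, 19.03, 1.60, 4.302 and 13.7 CPM. All 6 KI-BAPN libraries were above the WT-BAPN mean of 4.69 CPM. The log2 difference between KI-BAPN and WT-BAPN was 1.52 ± 0.63 (edgeR adjusted p = 0.290), and 1.52 ± 0.45 without the 3 libraries (edgeR adjusted p = 0.158), neither past the threshold. The highest of these libraries, KI-BAPN replicate 3, also had the highest adipocyte marker sum of its group, 8277 CPM against a group median of 1603, and WT-BAPN had a median of 719. Other libraries differed: KI-BAPN replicate 5 had S100b at 17.7 CPM with a sum of 1526, and KI replicate 5 had 13.7 CPM with a sum of 8091. The adipocyte sums ran from 805 to 8277 CPM in KI-BAPN and from 197 to 3064 in WT-BAPN, and all 8 markers had positive differences between these groups (median 1.99), of which 0 passed. The chondrocyte sum over 6 markers (Acan and Sox9) was 23.0 to 60.5 CPM in KI-BAPN and 36.1 to 149 in WT-BAPN. The part of either cell type in the S100b values was not tested.

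Per kilobase of exon, the order of levels over the 21 libraries was S100b (median 3.68 CPM per kb), Prx (2.45), Mbp (0.884), Sox10 (0.453), Ncmap (0.203), Mag (0.0634) and Pmp2 (0). The spread between libraries was as large as most of these steps: Mbp ran from 0.129 to 5.81 CPM per kb and S100b from 1.08 to 22.1. In WT replicate 5 Mbp reached 28.7 CPM per kb and S100b 33.1. The 3 libraries held 63.7% of the summed Mbp CPM of all 24, 69.9% for Ncmap, 60.2% for Sox10, 57.7% for Mag and 34.4% for S100b, but 19.7% for Prx.

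**Figure D2:**
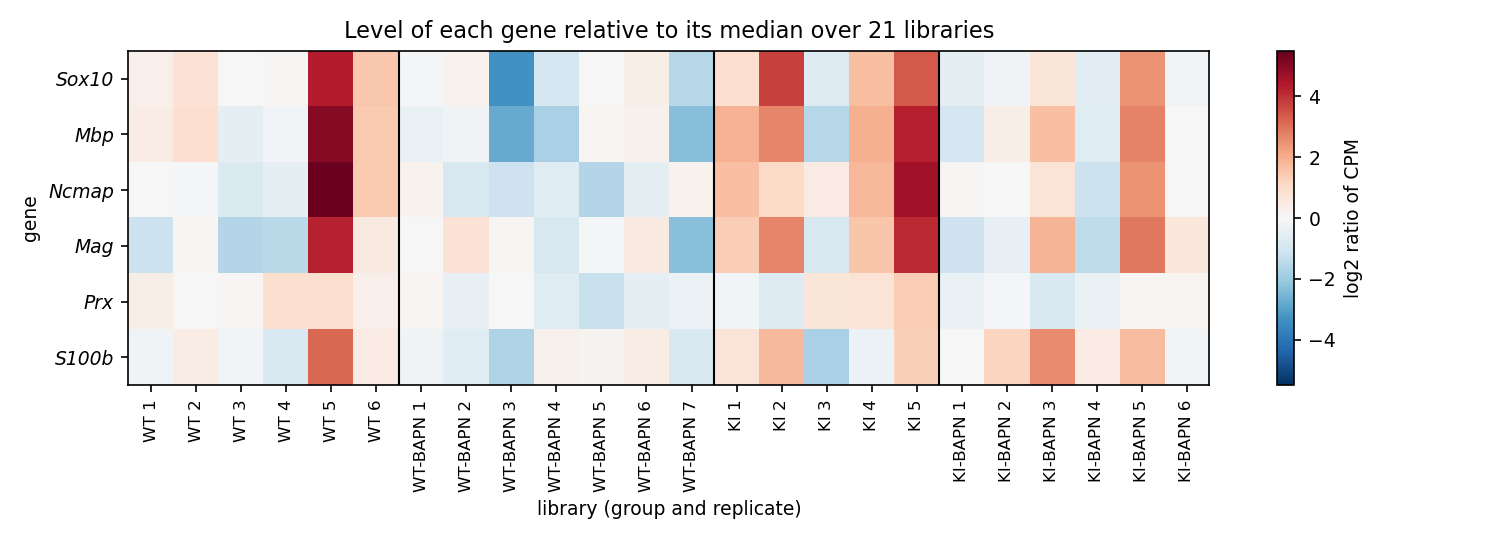
Each gene (rows) in each library (columns, by group and replicate) as the log2 ratio of its CPM to its median over 21 libraries, from blue (lower) to red (higher). WT 5 and KI 5 are red in Sox10, Mbp, Ncmap and Mag, KI 2 is red in Sox10, Mbp and Mag, and Prx stays pale in most columns.

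Relative to Sox10, Mbp was lower in KI replicate 2 than in the other high libraries. Mbp had 8.82 reads per Sox10 read in WT replicate 5 and 9.96 in KI replicate 5, inside the range of 2.94 to 10.6 of the other 21 libraries. KI replicate 2 had 2.60, the lowest of the 24 libraries, next to 2.94 in KI replicate 3, where the ratio rests on 71 reads. As a share, Mbp made up 72.2% of the Mbp and Sox10 reads there (Wilson 95% interval 70.0 to 74.3%), against 89.8% (88.9 to 90.7%) in WT replicate 5 and 90.9% (89.9 to 91.8%) in KI replicate 5; these intervals cover counting error only. Cldn19, a tight junction protein of the myelin sheath, was at 0.625 CPM in KI replicate 2 against 7.78 and 7.59 CPM in WT replicate 5 and KI replicate 5. Ngfr, the low-affinity neurotrophin receptor, was at 68.6 CPM in KI replicate 2 against 17.3 and 22.9, and Gap43, a growth-associated protein of axons and immature Schwann cells, at 132 CPM against 10.8 and 20.9. Sympathetic neuron markers were highest in KI replicate 2, as given above. Which cells these reads came from was not tested.

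**Figure D3:**
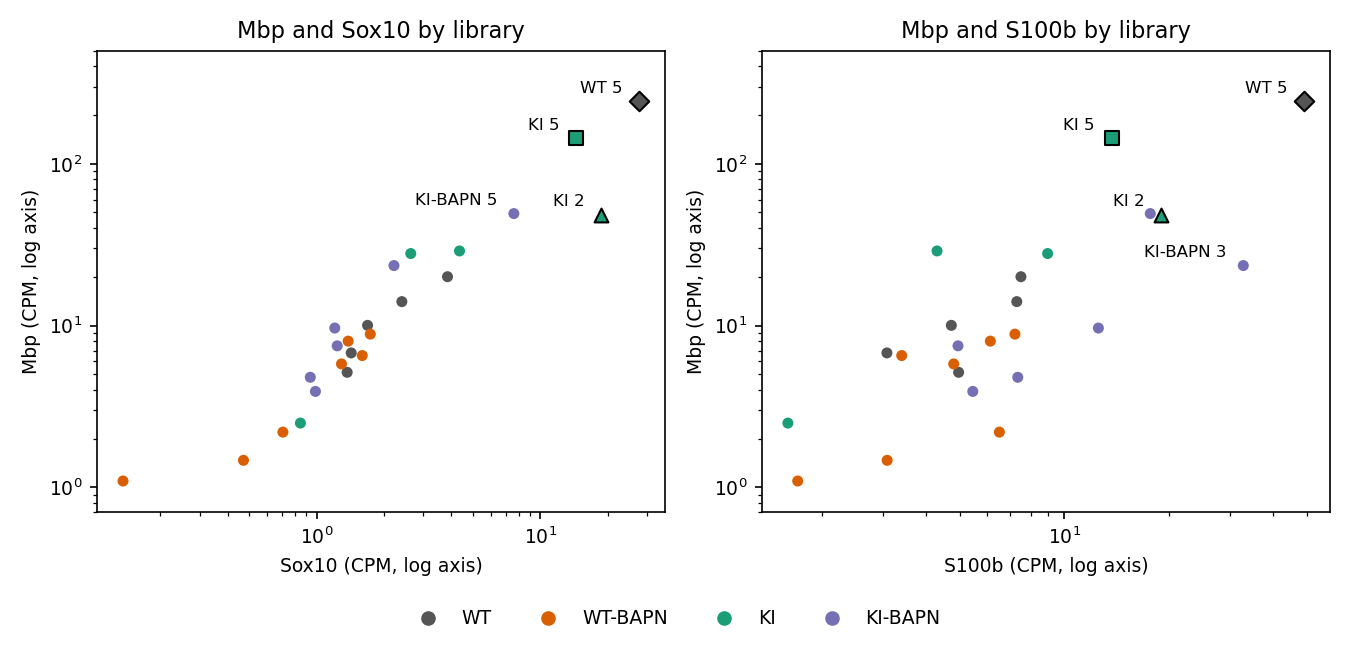
Mbp against Sox10 (left) and against S100b (right) in 24 libraries, all in CPM on log axes, coloured by group. Mbp follows Sox10 closely, with KI 2 lower in Mbp for its Sox10 than the other libraries, and follows S100b more loosely, with KI-BAPN 3 at 32.8 CPM of S100b and 23.5 CPM of Mbp.

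Across the 21 other libraries, Mbp and Sox10 had a Pearson correlation of 0.95 on log2 CPM, Mbp and Mag 0.75, Mbp and Ncmap 0.70, and Mbp and S100b 0.69. Prx had correlations of 0.12 with Mbp, 0.19 with Sox10, 0.40 with Ncmap, -0.05 with Mag and -0.42 with S100b, and over all 24 libraries of 0.39, 0.36, 0.62, 0.32 and -0.05. These are descriptions over libraries that share groups and depth. The genes whose log2 CPM was most like the mean of the tested members over the same 21 libraries included Sostdc1 (r = 0.95), Sfrp5 (0.94), Plekhb1 (0.94), Gjc3 (0.92), Cadm2 (0.92), Gpr37l1 (0.92), Slc35f1 (0.91), Cadm4 (0.91) and Erbb3 (0.91). Over all 24 libraries the same genes had r from 0.89 to 0.97.

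With all libraries, 2 of the 6 tested genes, Mbp and Ncmap, fell on BAPN in WT, where 6.14% of all genes tested were called in either direction. All 6 had a negative difference, with a median of -2.23 against -0.04 over all genes. Without the 3 libraries 1 of 6, Prx, fell, against 9.86% of all genes, and the median was -0.74 against 0.04. In the same comparison 6 of 7 tested airway and gland markers and 6 of 6 skeletal muscle markers fell, and without the 3 libraries 6 of 7 and 0 of 6. Smooth muscle markers, with Acta2 and Myh11 the most abundant, fell in 1 of 7 cases with all libraries and in 3 of 7 without the 3. The part of these tissues in the nerve gene differences was not tested. Each group difference is drawn with and without the 3 libraries.

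**Figure D4:**
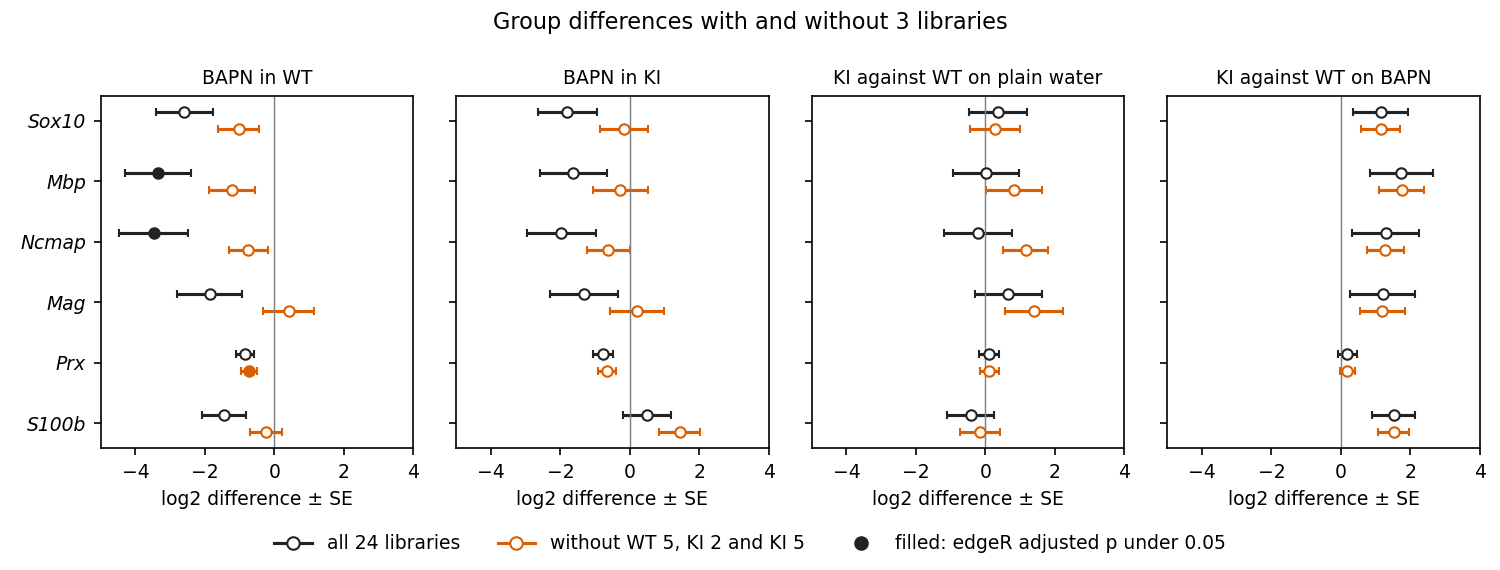
Log2 difference ± SE of 6 genes in 4 comparisons of 2 groups, from all 24 libraries (black) and without WT 5, KI 2 and KI 5 (orange), with filled points for an edgeR adjusted p under 0.05. On BAPN in WT, Mbp and Ncmap are filled with all libraries and Prx without the 3, and the points of Mbp, Ncmap, Sox10 and Mag move toward or past 0 when the 3 are left out.

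The choice of test also mattered here. DESeq2 called Mbp, Sox10 and Prx on BAPN in WT, beside 1493 of all 14216 genes, and gave no adjusted p for Ncmap. By limma voom with quality weights only Prx was called, 1 of 6, beside 4234 of all 14216 genes. Mbp and Ncmap were no longer called by edgeR when WT replicate 1 or 5 or WT-BAPN replicate 2, 3, 4, 5 or 6 was left out, with adjusted p of 0.0510 to 0.288 for Mbp and 0.05004 to 0.511 for Ncmap, while their differences moved by over 1.5 times only without WT replicate 5. Prx passed when WT-BAPN replicate 1 was left out (edgeR adjusted p = 0.0468), beside 970 of all 14214 genes.

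In KI, 0 of 6 genes passed on BAPN by edgeR, where 0.0352% of all genes were called. By limma voom it was 0 of 6 and by DESeq2 0 of 5, Ncmap having no adjusted p. At an unadjusted p under 0.05 edgeR had 2, Sox10 (difference -1.80 ± 0.85) and Prx, beside 1436 of all 14216 genes. Leaving out the 3 libraries, Sox10 was at -0.155 ± 0.69 (edgeR adjusted p = 0.930). Prx and S100b were then the 2 genes at an unadjusted edgeR p under 0.05, beside 2015 of all 14309 genes. Mbp was at 16.4 ± 17.6 CPM (SD, n = 6) in KI-BAPN and 50.3 ± 54.7 CPM (n = 5) in KI, a log2 difference of -1.62 ± 0.96 (edgeR adjusted p = 0.572). Without the 3 libraries the KI mean was 19.8 ± 14.96 CPM (n = 3) and the difference -0.27 ± 0.79 (edgeR adjusted p = 0.885). S100b had a positive difference, 0.50 ± 0.68, and 1.43 ± 0.60 without the 3 libraries (edgeR adjusted p = 0.323). Leaving out the 3 libraries gave 0 of 6, at a share of 0% over all genes.

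Between the genotypes on plain water 0 of 6 passed by edgeR or limma voom and 0 of 5 by DESeq2, against 0.19% of all genes by edgeR. At an unadjusted edgeR p under 0.05 there were 0 of the 6, beside 2407 of all 14216 genes. The Mbp means were 50.3 CPM in KI and 49.9 ± 94.9 CPM (n = 6) in WT, each set by the high libraries. Without them they were 19.8 and 11.2 ± 6.0 CPM, a log2 difference of 0.81 ± 0.81 (edgeR adjusted p = 0.808), and 0 of 6 passed at a share of 0.014% over all genes. On BAPN 0 of 6 passed by edgeR or limma voom, against 0.00703% of all genes by edgeR. DESeq2 gave no adjusted p for any of the 6 there. By edgeR 1, S100b, had an unadjusted p under 0.05, as did 1983 of all 14216 genes. All 6 differences were positive, with a median of 1.25 against -0.02 over all genes, and Mbp had 1.74 ± 0.91 (edgeR adjusted p = 0.394). Neither BAPN group held any of the 3 libraries, and without them 0 of 6 passed at a share of 0.00699%. At an unadjusted edgeR p under 0.05 there were then 3 genes, Mbp, Ncmap and S100b, beside 2514 of all 14309 genes. KI-BAPN replicate 5 was the highest of its group in Sox10, Mbp, Ncmap and Mag.

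The effect of BAPN was not found to differ between the genotypes. The interaction had 0 of 6 genes past the threshold by edgeR and limma voom and 0 of 5 by DESeq2, at 0% of all genes by edgeR with or without the 3 libraries. S100b alone of the 6 had an unadjusted edgeR p under 0.05, as did 2111 of all 14216 genes. Its interaction was 1.94 ± 0.93 on the log2 scale (edgeR adjusted p = 0.333), and 1.67 ± 0.75 without the 3 libraries (edgeR adjusted p = 0.404). The Mbp interaction had an approximate 95% interval from -0.86 to 4.32, which leaves room for a large difference.

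The wider Schwann cell programme was described with 67 further genes in 6 lists, of which 64 were tested. On BAPN in WT 0 of the 64 rose and 6 fell, where 6.14% of all genes tested were called in either direction. The median of the 64 was -0.75 against -0.04 over all genes. Among the compact myelin genes, Cldn19 fell by 4.02 ± 1.17 on the log2 scale (edgeR adjusted p = 0.0440). Mal, a proteolipid of the myelin membrane, had a difference of -2.69 that did not pass. Of 13 tested genes of non-compact myelin and the paranode, Plekhb1 fell by 3.01 ± 0.74 (edgeR adjusted p = 0.0244), and Gjc3 (-3.13), Cadm4 (-2.02) and Drp2 (-2.44) did not pass. Drp2 is the dystrophin-related partner of periaxin.

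Among 12 genes of non-myelinating and immature Schwann cells, Sox2 fell by 6.80 ± 1.56 (edgeR adjusted p = 0.0199), Art3 fell by 0.99 ± 0.27 (edgeR adjusted p = 0.0335) and Kcna1 fell by 2.525 ± 0.74 (edgeR adjusted p = 0.0444). Sox2, which is also made by airway epithelium, reached 49.2 CPM in WT replicate 5, while the 21 others had 0 to 0.730 CPM. It was also the 1 gene of 14 tested transcription factors to fall. Egr2, the factor that turns on myelin genes, reached 6.64 CPM in WT replicate 5, close to the highest of the 21 others (1.09 to 6.53 CPM). Of 12 signalling genes 0 passed and all 12 had negative differences, among them Erbb3 (-2.18) and Ngfr (-3.21). Of 7 tested genes of myelin lipid synthesis 0 passed, with Ugt8a, the galactosyltransferase that makes galactosylceramide, at -3.31 ± 1.08 (edgeR adjusted p = 0.0652).

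On BAPN in WT 0 of the 64 genes passed when the 3 libraries were left out, against 9.86% of all genes. Their median was -0.13 against 0.04 over all genes. Cldn19 was then at -1.51 (edgeR adjusted p = 0.267), Sox2 at -1.57 (0.251) and Kcna1 at -1.50 (0.124). The smallest adjusted p was that of Art3, at -0.76 ± 0.24 (edgeR adjusted p = 0.0526), followed by Plekhb1 at -1.44 ± 0.50 (edgeR adjusted p = 0.0683). In the other 4 comparisons 0 of the 64 passed with or without the 3 libraries, where at most 0.19% of all genes were called. Gap43, which was highest in KI replicate 2, had the smallest adjusted p of the lists for KI against WT on plain water (difference 3.44 ± 1.05, edgeR adjusted p = 0.121). For KI-BAPN against WT-BAPN it was Ntrk2, a neurotrophin receptor, at 1.11 ± 0.34 (edgeR adjusted p = 0.243).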

How the data were processed

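RNA was extracted from aorta with TRIzol, enriched for poly(A) and sequenced in 24 libraries, per the labels' protocols. The deposited table holds the authors' counts of reads per gene, not normalized, with gene length and position. HISAT2, Trim Galore, FastQC and DESeq2 are named in the submitters' processing notes, with GRCm38 and mm10 as builds. For the counter and its strand setting the sources used here give nothing. All 7 gene IDs were in GENCODE M21 (GRCm38), but 0 of 7 had its start and end, so positions are printed as deposited and their build is open. All 24 count columns matched a sample by the codes in the labels, leaving 0 unmatched.

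Counts were tested with edgeR 4.0.16 (R 4.3.3): TMM factors, filterByExpr by group, robust quasi-likelihood F tests on 1 mean per group over all 24 libraries, and Benjamini-Hochberg adjustment over all 14216 genes tested, with a threshold of 0.05. CPM use the TMM factors, and log2 CPM a prior count of 2. Standard errors are derived from each gene's F statistic, and approximate 95% intervals are the difference ± 1.96 SE. The edgeR steps were tested on simulated data. DESeq2 1.42.0 and limma 3.58.1 were alternatives, beside other filters, thresholds, scalings and left-out libraries. The members and lists were chosen with earlier results of these data known, and the 3 libraries were named with them. Named are all members, up to 4 genes per Schwann cell list and comparison with the smallest adjusted p and every gene called, the 2 most abundant genes of a marker list, and the 10 genes most like the members. Some genes that this rule names are not reported here. No 2 libraries of a group agreed within sampling noise (chi-square per degree of freedom at least 30.8).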

Additional observations from a re-analysis of the deposited data

Results flagged for a closer look

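In groups of 4 to 10 libraries, a library was singled out when its gap to the next, divided by the range of the group, passed Dixon's 95% critical value. Of 24 combinations of a gene and a group, 8 had such a library. Chance flags about 1 in 20 groups when they are independent and their values follow a normal distribution. CPM were used here without a log and were skewed upward, and all 8 flagged values were the highest of their group, so that rate does not apply. Nor are the groups independent, since the genes vary together and 5 of the 8 values are of 1 library. WT replicate 5 and KI replicate 5 were also already known to stand apart, so the number is a description. WT replicate 5 was the highest of 6 WT libraries by this rule in 5 genes: Mbp (243 CPM), Ncmap (19.05), Sox10 (27.6), Mag (4.80) and S100b (49.1). KI replicate 5 was far above the other KI libraries in Ncmap (10.996 CPM). KI-BAPN replicate 5, which was kept in all fits, was far above the other KI-BAPN libraries in Ncmap (2.49 CPM) and Sox10 (7.61 CPM). No Prx value was singled out.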

How the results depend on the processing

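Among the tested members, depth was lowest for Mag, Sox10 and Ncmap, with as few as 1, 2 and 3 reads in a library. Every alternative below was planned, and values are log2 differences or counts of genes called. The 2 members called on BAPN in WT became 0 at an adjusted p under 0.01, 4 under 0.1, 1 with limma voom, 1 with a filter of 5 CPM in 5 libraries (3 members tested), 1 when only the compared groups were fitted (4 tested), 1 without the 3 libraries, and 0 to 3 when 1 library was left out. DESeq2 gave no adjusted p for Ncmap in 4 comparisons and for any of the 6 in KI-BAPN against WT-BAPN. With the replicate block, 0 members were called on BAPN in WT, Mbp being -1.90 (edgeR adjusted p = 0.0976) and Ncmap -1.63 (0.155). The replicate numbers did not clearly pair the libraries, as correlations of same-numbered libraries ran from -0.52 to 0.57. Those exceeding 0.1 were 5 of 6 pairs for BAPN in WT and 1 of 5 for BAPN in KI. For KI against WT they were 3 of 5 on plain water and 2 of 6 on BAPN. In BAPN in WT the correlations ran from -0.11 to 0.57, so whether numbers pair libraries there is not settled. Fewer than all libraries correlated best with their own number (2, 1, 1 and 1). The block also gave 0 genes on BAPN in KI, 0.66 for Ncmap in KI against WT on plain water and -1.16 for the Mag interaction.

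Over all genes, the 873 called on BAPN in WT became 6 and 1831 at the 0.01 and 0.1 thresholds, 1493 with DESeq2, 4234 with limma voom, 1411 without the 3 libraries, and 327 (without WT replicate 1) to 1609 (without WT-BAPN replicate 7) with 1 library left out. The 5 called on BAPN in KI became 198 with DESeq2, 0 with limma voom, at 0.01, with either other filter, with the compared groups alone and without the 3 libraries, and 0 to 143 with 1 left out. The 27 of KI against WT on plain water became 2 and 196 at the 2 thresholds, 480 with DESeq2, 271 with limma voom, 7 without a filter, 8 with the compared groups alone, 2 without the 3 libraries, and 1 (without KI replicate 2) to 293 (without WT replicate 5) with 1 left out. On BAPN the 1 gene became 28 with DESeq2 and 3 with limma voom, and the 0 of the interaction became 14 and 4.

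Sign changes concerned differences that were never called. Mag turned to 0.48 with limma voom and 0.42 without the 3 libraries on BAPN in WT, to 0.21 without them on BAPN in KI, and to -1.70 and -0.21 for the interaction. Ncmap turned to 1.54 with limma voom and 1.16 without the 3 libraries for KI against WT on plain water, and to -0.57 for the interaction with limma voom. Mbp turned to -0.020 with the 5 CPM filter for KI against WT on plain water. With 1 library left out, KI against WT on plain water ran from -0.89 to 2.16 for Mbp, -1.65 to 2.51 for Ncmap, -0.20 to 1.93 for Sox10, -0.22 to 0.30 for Prx, -0.25 to 2.95 for Mag and -0.84 to 0.79 for S100b. The interaction ran from -0.42 to 2.63 for Mbp, -1.23 to 2.94 for Ncmap, -0.78 to 1.35 for Sox10, -0.12 to 0.40 for Prx and -1.76 to 1.46 for Mag, and Mag on BAPN in WT from -2.10 to 0.42. The cause of these changes was not tested.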
